A study of Mus musculus with 6 samples.

Results

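The genes described here are the subunits of the NMDA receptor, the channel that ketamine blocks, and serine racemase, the enzyme that makes the receptor's co-agonist D-serine. They were the 8 genes Grin1, Grin2a, Grin2b, Grin2c, Grin2d, Grin3a, Grin3b and Srr, taken by symbol from the 37620 genes in the deposited table, and each symbol gave 1 gene. Of these 8, 7 averaged 10 or more normalized counts across the mice and were tested among 16127 genes, and Grin3b was too low to test. RNA was sequenced from the prelimbic cortex (PLc), which lies medially in the prefrontal cortex, of wild-type C57Bl/6 mice aged 9 weeks. The saline group was mice 1, 6 and 10, which had the vehicle intraperitoneally, and the ketamine group was mice 3, 5 and 9, which had 30 mg/kg of ketamine by the same route, each once a day for 5 days. Tissue was dissected 2 days after the last injection and gave 1 library for each mouse. The comparison asks whether transcripts of the drug's direct target, and the proportions of its subunits, differed in the PLc after sub-chronic ketamine.

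NMDA receptors are tetrameric glutamate-gated channels that pass calcium and are blocked by magnesium at rest. GluN1, encoded by Grin1, is obligatory and binds glycine or D-serine. The GluN2 subunits, encoded by Grin2a to Grin2d, bind glutamate and set how fast the channel closes and how strongly magnesium blocks it. In the forebrain Grin2b dominates early in life and Grin2a rises as circuits mature. The GluN3 subunits, encoded by Grin3a and Grin3b, bind glycine and lower calcium flow and magnesium block. Ketamine enters the open channel and lodges in its pore.

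The residue at the tip of the pore loop separates GluN3 from the other subunits, so coding bases around it are shown, from GENCODE M1 transcripts on mm9, 5′ to 3′, with the codon of that residue in capitals and 10 codons on each side. The codon is AAC, for asparagine, in Grin1, Grin2a, Grin2c and Grin2d, where this residue contributes to calcium passage, magnesium block and the binding of channel blockers. In the aligned position Grin3a has GGC and Grin3b has GGA, which encode glycine.
Grin1: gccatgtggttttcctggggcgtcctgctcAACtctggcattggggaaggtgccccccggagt
Grin2a: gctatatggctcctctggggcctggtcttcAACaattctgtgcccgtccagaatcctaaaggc
Grin2c: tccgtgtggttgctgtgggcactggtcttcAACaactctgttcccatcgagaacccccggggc
Grin2d: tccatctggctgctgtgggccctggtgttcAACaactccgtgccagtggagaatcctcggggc
Grin3a: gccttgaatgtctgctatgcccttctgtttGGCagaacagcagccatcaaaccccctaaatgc
Grin3b: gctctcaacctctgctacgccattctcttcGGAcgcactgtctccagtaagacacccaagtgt
Within these 63 bases Grin2a, Grin2c and Grin2d shared between 71.4% and 81.0% of positions with each other, Grin2c and Grin2d being the closest pair. Grin1 shared between 44.4% and 49.2% with these 3 genes, and Grin3a shared 61.9% with Grin3b. For Srr, the bases around the codon for the lysine that carries the enzyme's cofactor, pyridoxal phosphate, are shown in the same way.
Srr: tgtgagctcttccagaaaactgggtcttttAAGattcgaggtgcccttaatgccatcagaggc

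On mm9 the windows lie at chr2:25152803-25152938 for Grin1, where the window joins exons 14 and 15 of 21, at chr16:9653624-9653686 in exon 10 of 14 for Grin2a, at chr11:115115147-115115209 in exon 11 of 15 for Grin2c, and at chr7:53109733-53109795 in exon 8 of 12 for Grin2d. That of Grin3a is at chr4:49783426-49783488 in exon 3 of 9, that of Grin3b at chr10:79437261-79437323 in exon 3 of 9, and that of Srr at chr11:74724868-74726496 across exons 3 and 4 of 9. Grin3b is on the plus strand and the others shown are on the minus strand. Whether counting used strand is not given in the sources used here, so overlapping genes limit some values. Grin3b shares 1059 exon bases with the antisense gene ORF61, which had a mean of 2917 normalized counts. Srr shares 1240 exon bases with Tsr1 and 126 with Smg6, and Grin1 shares 1307 with E130003G02Rik, which had a mean of 34.8 normalized counts. Grin2a and Grin2d overlap no annotated gene.

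The libraries held between 26273436 and 32643726 reads counted in genes, and the 15 correlations between libraries, over the genes tested, ran from 0.954 for ketamine mice 3 and 9 to 0.992 for saline mice 1 and 6. Markers of excitatory cortical neurons were present in every library, and the summed level of the 12 markers ran from 56407 to 79691 normalized counts in the saline group and from 38030 to 62642 in the ketamine group. Markers of neighbouring regions were not evenly spread. The 18 markers of striatal projection neurons summed to 16620 to 24256 in saline mice, to 91208 and 52257 in ketamine mice 3 and 5, and to 24904 in ketamine mouse 9. Single striatal markers went both ways in ketamine mouse 9. Meis2 had 9586 there, against 1424 to 4973 in saline mice, and Drd1 had 116, against 184.5 to 236.6. The mean log2 value of the striatal list in that mouse differed from the saline mean by -0.0026. The 13 markers of olfactory bulb mitral and tufted cells summed to between 686 and 1891 in saline mice, to 4030 and 2055 in ketamine mice 3 and 5, and to 12535 in ketamine mouse 9. Of the striatal markers, Isl1 was at 0 in saline mice 1 and 6 and Six3 in those mice and ketamine mouse 9, and the others were above 0 in every mouse. Of the olfactory bulb markers, Lhx1 was at 0 in saline mice 1 and 6, Lhx5 in saline mouse 1, and Barhl2 and Uncx in saline mouse 6. Not all of these markers were highest in ketamine mouse 9. Lhx1, Lhx5, Slc17a6 and Uncx had 5.44, 24.47, 700.7 and 2.72 there, below the 41.73, 30.75, 857.6 and 29.65 of saline mouse 10. The other olfactory bulb markers listed were highest in ketamine mouse 9. The 9 markers of GABAergic neurons summed to from 26412 to 30834 in saline mice and from 35831 to 54581 in ketamine mice, without overlap. In saline mouse 10 the 10 oligodendrocyte markers summed to 408227, against 60867 and 47787 in saline mice 1 and 6. The ketamine mice lay between, at 173898, 113027 and 124977 in mice 3, 5 and 9. As these are bulk tissue samples, a change in the number of cells of a type and a change in RNA per cell cannot be told apart. The part of these markers in the values of the receptor genes was not tested.

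**Figure D1:**
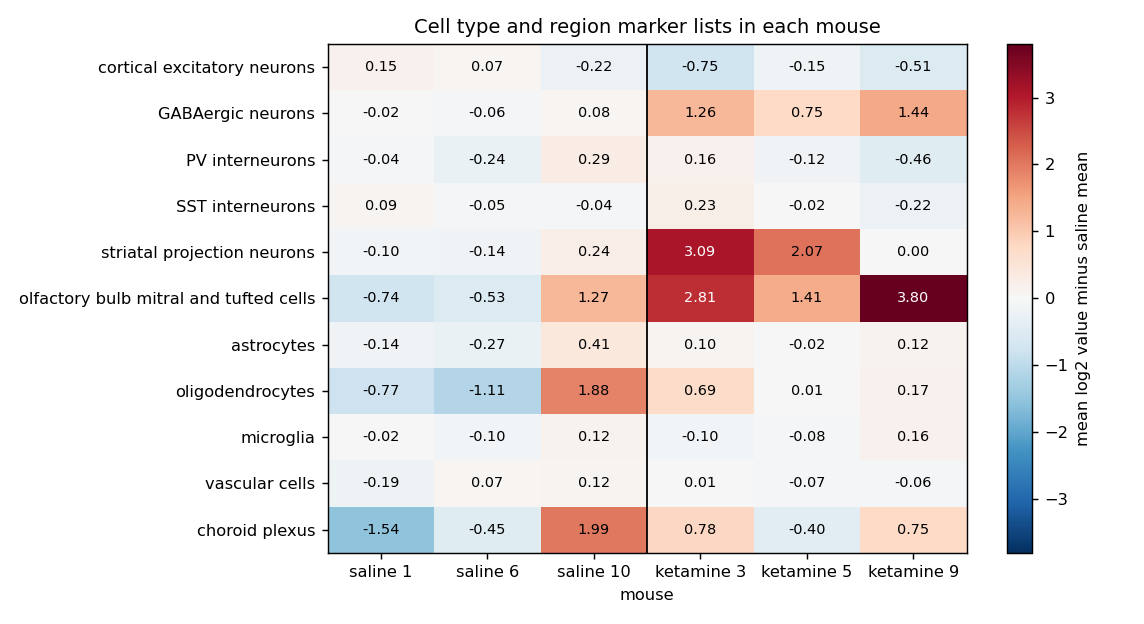
Each cell gives the mean log2(normalized count + 1) of a marker list in a mouse (column) minus its mean in the 3 saline mice, on a colour scale in log2 units, with the saline mice left of the line. Striatal markers were high in ketamine mice 3 and 5 (3.09 and 2.07), and olfactory bulb markers were highest in ketamine mouse 9 (3.80).

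Among the receptor genes Grin1 was the most abundant. Per kb of merged exon, Grin1 had 1769 ± 232 normalized counts in saline mice (mean ± SD, n = 3) and Srr had 661 ± 136. Grin2a followed at 326 ± 103, Grin2c at 285 ± 1.43 and Grin2b at 285 ± 109, and the ranges of these GluN2 genes overlapped. Grin3a at 85.9 ± 23.1 and Grin2d at 68.9 ± 2.35 also overlapped with each other, and Grin3b was lowest at 2.91 ± 1.81. In ketamine mice the order of the means was Grin1 (1413 ± 264), Srr (569 ± 179), Grin2c (328 ± 39.2), Grin2b (240 ± 114), Grin2a (191 ± 161), Grin3a (103 ± 41.6), Grin2d (88.0 ± 24.1) and Grin3b (1.52 ± 0.581). In that group each gene from Grin2c to Grin3a overlapped with the next. Levels per kb depend on the length used, since merged exons came to 9.70 kb for Grin1 but its longest coding transcript to 4276 bases, which gave 4013 normalized counts per kb in saline mice. With the longest coding transcript, Grin2b came before Grin2c in saline mice and Grin3a before Grin2a in ketamine mice.

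None of the 7 receptor genes tested passed the threshold between the groups. Of these, 4 had a lower mean log2 value in ketamine mice and 3 a higher one, with a median difference of -0.25 beside -0.015 over all genes tested. This tally rested on single libraries, since without ketamine mouse 9 it was 5 higher and 2 lower with a median of 0.14, and without saline mouse 1 the median was -0.026. The limma test, at an adjusted p under 0.05, called 0 of the 7, and it called 0.0% of the 16127 genes tested, of which 937 had an unadjusted p under 0.05. On the recovered reads edgeR called 0 of 16127 genes, with 1007 at an unadjusted p under 0.05, and DESeq2 called 0 of the 7 beside 1.13% of the 16087 genes with an adjusted p. Grin2c was the 1 gene of the 7 without overlap between the groups, being higher in ketamine mice, as were 5.69% of genes tested, and 0 of the 7 were lower without overlap, as were 4.66%. Ketamine mouse 9 had the lowest value of the 6 mice for 6 of the 7 genes, the exception being Grin2c.

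Grin1, the subunit needed in every NMDA receptor, had 18453, 18474 and 14557 normalized counts in saline mice 1, 6 and 10, against 12427, 16657 and 12042 in ketamine mice 3, 5 and 9. Ketamine mice 3 and 9 lay below all saline mice, whereas ketamine mouse 5 lay within their range. The difference was -0.33 on the log2 scale (SE 0.19, limma adjusted p = 0.9993), and it was -0.25 without ketamine mouse 9.

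Grin2a encodes the GluN2A subunit of mature forebrain synapses. It had 2331, 1582 and 1267 normalized counts in saline mice 1, 6 and 10, against 1228, 1739 and 71.6 in ketamine mice 3, 5 and 9. The value in ketamine mouse 9 came from 79 reads, with an exact 95% Poisson interval from 62.5 to 98.5, which covers counting error only. It was 17.1 times below the next lowest mouse. Of the 12413 genes that averaged 100 or more normalized counts, Grin2a was the one that lay farthest below the lowest of the other 5 mice in that library, and in all 52 genes lay over 2 log2 units below, against 0 to 2 genes in each of the other libraries. Across all mice the difference was -1.64 on the log2 scale (SE 1.10, limma adjusted p = 0.9993), but DESeq2 gave -0.76, and without ketamine mouse 9 limma gave -0.19. Ketamine mouse 5 was above saline mice 6 and 10, so the remaining ketamine mice overlapped with the saline group.

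Grin2b encodes GluN2B, the subunit that binds CaMKII and dominates early in development. It had 3284, 2168 and 1529 normalized counts in saline mice 1, 6 and 10, against 2114, 2809 and 963 in ketamine mice 3, 5 and 9. The groups overlapped widely, with a saline spread larger than the difference of -0.31 on the log2 scale (SE 0.43, limma adjusted p = 0.9993). Without ketamine mouse 9, whose value was 1.59 times below the next lowest mouse, the difference turned to 0.14.

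Grin2c encodes GluN2C, best known from cerebellar granule cells. It had 1445, 1431 and 1436 normalized counts in saline mice 1, 6 and 10, against 1613, 1863 and 1473 in ketamine mice 3, 5 and 9. All 3 ketamine mice were above all 3 saline mice, also with recomputed size factors and with upper-quartile scaling. The gap between ketamine mouse 9 and saline mouse 1 was small, and the counting interval of the former, from 1402 to 1546, overlapped with that of the latter, from 1373 to 1520. The 3 saline values varied by 0.501% of their mean, less than the 2.57% that counting alone gives in saline mouse 1. The difference was 0.19 on the log2 scale (SE 0.13, limma adjusted p = 0.9993; two-sided exact permutation p = 0.1, the lowest possible with 3 mice against 3). It was 0.10 without ketamine mouse 5.

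Grin2d encodes GluN2D, which in the adult cortex is found in interneurons. It had 395, 397 and 419 normalized counts in saline mice 1, 6 and 10, against 663, 503 and 382 in ketamine mice 3, 5 and 9. Ketamine mice 3 and 5 lay above the saline range and ketamine mouse 9 just below it. The difference was 0.32 on the log2 scale (SE 0.21, limma adjusted p = 0.9993). It was 0.52 without ketamine mouse 9 (limma adjusted p = 0.364) and 0.12 without ketamine mouse 3. The order of the ketamine mice for Grin2d, with 3 highest and 9 lowest, was also that of Grin3a and of the striatal marker sums. The GABAergic marker sums had another order, at 54581, 35831 and 47122 in ketamine mice 3, 5 and 9, each above the saline mice. The match with the striatal sums did not extend to saline mice 1, 6 and 10. Their striatal sums were 24256, 23129 and 16620, the reverse of their order for Grin2d. Ketamine mouse 9, lowest for Grin2d, had a striatal sum of 24904, above all saline mice. Whether either set of markers bears on Grin2d was not tested.

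Grin3a encodes GluN3A, a glycine-binding subunit that is most abundant in the young forebrain. It had 1647, 1474 and 948 normalized counts in saline mice 1, 6 and 10, against 2182, 1785 and 901 in ketamine mice 3, 5 and 9. Ketamine mice 3 and 5 were above all saline mice and ketamine mouse 9 was below them. The difference was 0.20 on the log2 scale (SE 0.36, limma adjusted p = 0.9993). It rose to 0.58 without ketamine mouse 9 and turned to -0.058 without ketamine mouse 3 and to -0.036 without saline mouse 10. Grin3b, the partner subunit known from motor neurons, had 3, 12 and 13 reads in saline mice 1, 6 and 10, against 6, 3 and 7 reads in ketamine mice 3, 5 and 9. Its exact 95% Poisson intervals ran from 0.582 to 24.4 normalized counts over the 6 mice, so a difference was not detectable with so few reads. Whether the overlap of Grin3b with ORF61 lowered its reads was not tested.

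Srr converts L-serine to D-serine in the brain. It had 3528, 3187 and 2328 normalized counts in saline mice 1, 6 and 10, against 2755, 3321 and 1711 in ketamine mice 3, 5 and 9. Ketamine mice 3 and 5 lay within the saline range and ketamine mouse 9 below it. The difference was -0.25 on the log2 scale (SE 0.27, limma adjusted p = 0.9993), and it was 0.027 without ketamine mouse 9.

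**Figure D2:**
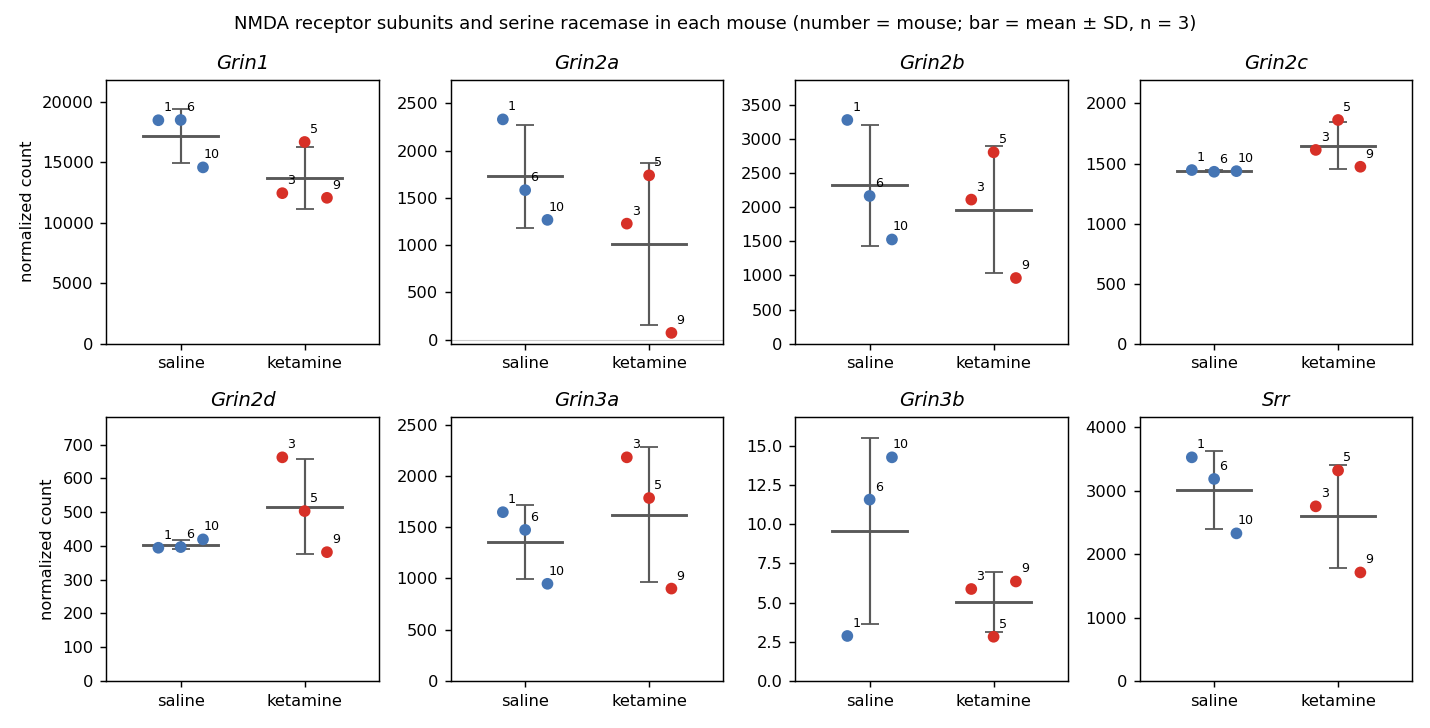
Each panel plots the normalized count of a gene (vertical axis, from 0) in the saline mice (blue) and the ketamine mice (red), with the mouse number beside the point and the group mean ± SD (n = 3) as bars. Grin2c is the panel without overlap, and the Grin2a value of 71.6 in ketamine mouse 9 stands far below the other 5.

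Ratios between subunits were computed within each mouse, which removes the library's scaling. The number of ratios compared was 10, and with 3 mice against 3 none can reach an exact p below 0.1 (two-sided), which Benjamini-Hochberg adjustment over the 10 cannot lower. Of the 10, 3 did not overlap between the groups. If group labels were random, each ratio would be apart, in either direction, with probability 0.1. Most of the ratios share Grin1, so they are not independent of each other, and the count of 3 is not a test. Grin2a to Grin2b was lower in each ketamine mouse. Grin2c to Grin1 and Grin2d to Grin1 were higher in each ketamine mouse.

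The log2 ratio of Grin2a to Grin2b normalized counts was -0.49, -0.45 and -0.27 in saline mice 1, 6 and 10, against -0.78, -0.69 and -3.73 in ketamine mice 3, 5 and 9. The difference in means was -1.33 (exact permutation test, two-sided, p = 0.1). Most of its size came from ketamine mouse 9, and without it the difference was -0.33, still without overlap but with 0.2 as the smallest exact p. Per kb of exon, Grin2a was 1.10, 1.13 and 1.28 times Grin2b in saline mice and 0.896, 0.955 and 0.115 times in ketamine mice 3, 5 and 9.

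Relative to Grin1 per kb of merged exon, a level that depends on the length taken for Grin1, Grin2c stood at 0.151, 0.149 and 0.190 in saline mice 1, 6 and 10, against 0.250, 0.215 and 0.236 in ketamine mice 3, 5 and 9. The log2 difference was 0.52 (exact permutation test, two-sided, p = 0.1), between 0.46 and 0.64 with any mouse left out, and no mouse decided it. Both genes contributed, since Grin1 was lower by 0.33 and Grin2c higher by 0.19 on average, neither past the threshold. Grin2d to Grin1 stood at 0.0354, 0.0355 and 0.0477 in saline mice, against 0.0882, 0.05 and 0.0524 in ketamine mice. Its log2 difference was 0.65 (exact permutation test, two-sided, p = 0.1), and it was 0.39 without ketamine mouse 3. The gap between saline mouse 10 and ketamine mouse 5 was small.

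The other 7 ratios overlapped between the groups. Grin2b to Grin1 differed by 0.022 on the log2 scale (exact permutation test, two-sided, p = 1), Srr to Grin1 by 0.084 (exact p = 0.7) and Grin3a to Grin1 by 0.53 (exact p = 0.3). Grin2a to Grin1 differed by -1.31 (exact p = 0.6), and by 0.051 without ketamine mouse 9. Grin3b to Grin1 differed by -0.32 (exact p = 0.6), on very few Grin3b reads. The summed GluN2 level per kb was between 0.481 and 0.629 times that of Grin1 in saline mice and between 0.394 and 0.721 times in ketamine mice, a log2 difference of 0.080 (exact p = 0.8). The 7 NMDA subunits summed per kb were between 0.340 and 0.422 times the 4 AMPA subunits in saline mice and between 0.295 and 0.385 times in ketamine mice (log2 difference -0.18, exact p = 0.3). Both levels depend on the length used. With the longest coding transcript, the saline mean log2 ratio was -1.97 in place of -0.89 for summed GluN2 to Grin1. For summed NMDA to summed AMPA it was -0.69 in place of -1.36. The differences between groups were then 0.068 and -0.18.

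**Figure D3:**
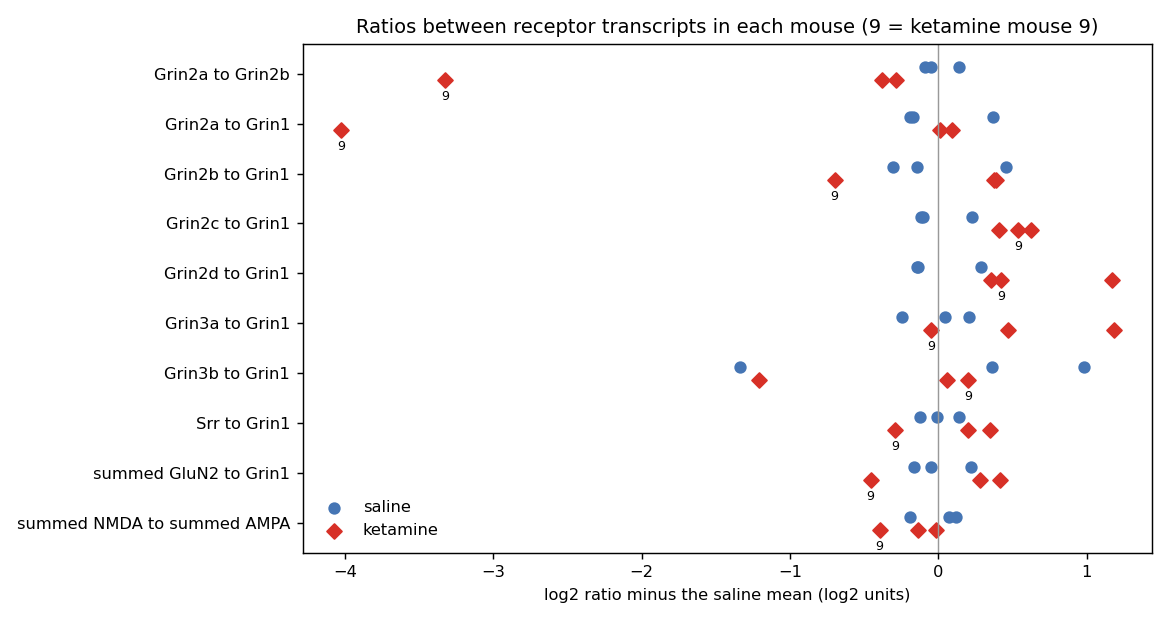
Each row is a ratio between receptor transcripts, plotted on the horizontal axis as its log2 value in a mouse minus the mean of the saline mice, with saline mice as circles and ketamine mice as diamonds (ketamine mouse 9 is marked). The groups are apart for Grin2a to Grin2b, Grin2c to Grin1 and Grin2d to Grin1, whose differences in means were -1.33, 0.52 and 0.65.

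As shares of the summed GluN2 level per kb, Grin2a made up 36.8%, 32.6% and 30.6% in saline mice 1, 6 and 10, against 25.1%, 29.1% and 2.77% in ketamine mice 3, 5 and 9. It was thus the largest share in saline mice 1 and 6 and in no ketamine mouse (exact permutation test of the shares, two-sided, p = 0.1, without overlap). Grin2b took from 23.9% to 33.6% in saline mice and from 24.1% to 30.5% in ketamine mice (exact p = 0.8). Grin2c took 24.0%, 31.0% and 36.4% in saline mice, against 34.7%, 32.8% and 59.8% in ketamine mice 3, 5 and 9 (exact p = 0.3). Grin2d took from 5.63% to 9.14% in saline mice and from 7.61% to 13.3% in ketamine mice (exact p = 0.2). Saline mouse 10 was nearest to the ketamine mice for Grin2a and Grin2c. The shares add up to the whole in each mouse, so a low Grin2a in ketamine mouse 9 raises those of the other 3 genes.

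**Figure D4:**
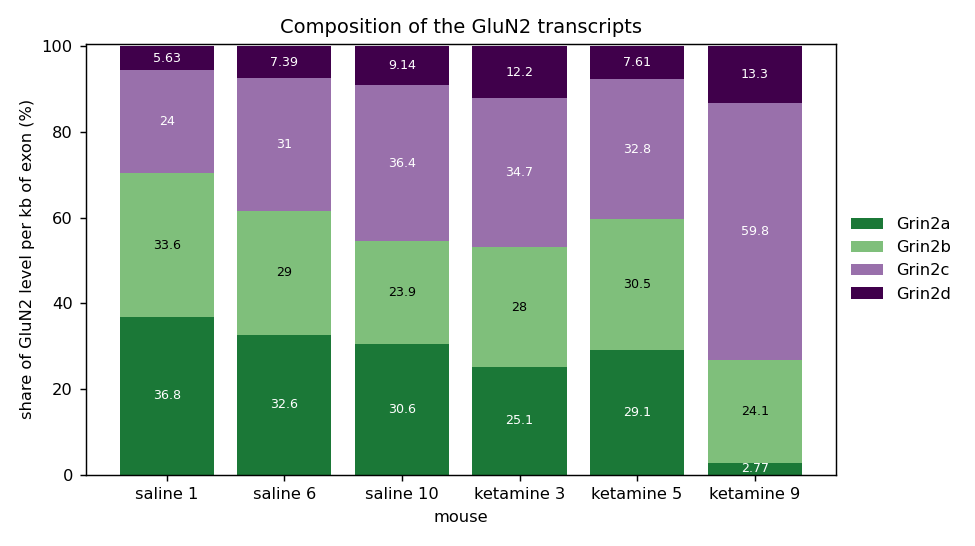
Stacked bars give, for each mouse, the share in percent of each Grin2 gene in their summed normalized count per kb of exon. The Grin2a share at the base is from 30.6% to 36.8% in saline mice and from 2.77% to 29.1% in ketamine mice.

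The library of ketamine mouse 9 also differed from the others by gene length. Over the same 12413 genes, its median deviation from the mean of the other 5 mice was 0.52 on the log2 scale for genes with up to 1 kb of merged exon and -0.73 for genes above 12 kb. The same medians were -0.30 and 0.33 in ketamine mouse 5, and between -0.16 and 0.20 in the other libraries. Grin1, at 9.70 kb, deviated by -0.40 in ketamine mouse 9, near the median of -0.45 for genes of 8 to 12 kb, and Grin3a, at 15.8 kb, by -0.78. Grin2b deviated by -1.26 and Srr by -0.81. Grin2a, with 5.30 kb, deviated by -4.45, where the median of genes of 4 to 6 kb was -0.12. With each library centred within 10 bins of exon length, Grin2a to Grin2b and Grin2c to Grin1 stayed apart between the groups (-1.36 and 0.49 on the log2 scale), whereas Grin2d to Grin1 overlapped (0.62; exact permutation test, two-sided, p = 0.2). The limma differences after this centring were -0.27 for Grin1, -1.60 for Grin2a, 0.23 for Grin2c and 0.35 for Grin2d, with adjusted p between 0.677 and 0.946 over the 7 genes.

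**Figure D5:**
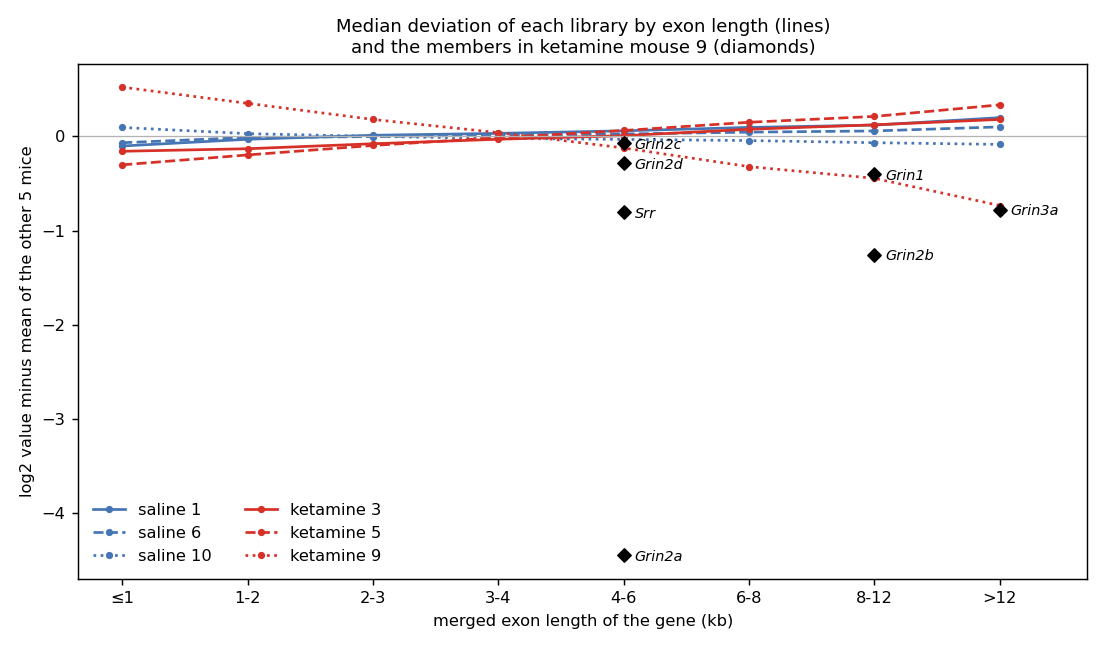
Lines give, for each library, the median log2 value minus the mean of the other 5 mice (vertical axis) for genes in 8 bins of merged exon length in kb (horizontal axis), and diamonds give the 7 receptor genes tested in ketamine mouse 9. The line of ketamine mouse 9 runs from 0.52 to -0.73, and Grin2a lies at -4.45, far below the line for its length.

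The genes whose values over the 6 mice were most like those of a receptor gene were found by the root mean square (RMS) difference of centred log2 values, among genes that averaged 100 or more normalized counts. Trim3 was closest to Grin1 (RMS 0.0133), and Spred2 was next (0.0362). Dgkh, a diacylglycerol kinase, and the gene Gm10010 were closest to Grin2a (RMS 0.258 and 0.231). Dgkh had 1013, 673 and 550 normalized counts in saline mice 1, 6 and 10, against 778, 927 and 46.2 in ketamine mice 3, 5 and 9. Its low value in ketamine mouse 9 follows from its choice by likeness to Grin2a. Closest to Grin2b were Gm14290 (0.121) and Myh10, a non-muscle myosin (0.123), and closest to Grin2c were Ehmt1, a histone methyltransferase (0.0263), and Dab1, the reelin adaptor (0.0334). Fndc3b (0.0192) and Pdxk, pyridoxal kinase (0.0435), were closest to Grin2d. Gabrg3, a GABA-A receptor subunit (0.0667), and Elfn1, a synaptic adhesion protein (0.0926), were closest to Grin3a, and Fam160a2 (0.0371) and Adam23 (0.0407) were closest to Srr.

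Proteins that bind, anchor or modify the receptor were next compared. Of 46 such partners tested, 12 had a higher and 34 a lower mean log2 value in ketamine mice, with a median of -0.17 beside -0.015 over all genes tested. The limma test called 0 of the 46, of which 7 had an unadjusted p under 0.05, beside 937 of all 16127 genes. The median was -0.076 without ketamine mouse 9, -0.092 without saline mouse 1, -0.11 without saline mouse 6 and -0.28 without saline mouse 10. DESeq2 called 1 of the 46, beside 1.13% of the 16087 genes with an adjusted p. The gene called was Ephb2, an ephrin receptor that binds NMDA receptors at the synapse. Ephb2 had 667, 611 and 804 normalized counts in saline mice 1, 6 and 10, against 415, 392 and 313 in ketamine mice 3, 5 and 9, lower in each ketamine mouse. The difference was -0.89 on the log2 scale (limma adjusted p = 0.328, edgeR adjusted p = 0.365, DESeq2 adjusted p = 0.0047). Nefl, the light neurofilament, and Ppp3r1, the regulatory subunit of calcineurin, were also lower in each ketamine mouse, by -0.46 and -0.50 on the log2 scale (limma adjusted p = 0.677 and 0.699). In all 6 of 46 partners were lower without overlap, beside 4.66% of genes tested, and 1 was higher, beside 5.69%. The latter, named after its values were seen, was the Src-family kinase Yes1, at 372, 374 and 462 in saline mice, against 591, 485 and 638 in ketamine mice.

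For genes that supply or remove glycine and D-serine, the co-agonists at GluN1, 15 of 17 were tested. Of these, 12 had a higher mean log2 value, with a median of 0.10 beside -0.015 over all genes tested. The median ran from 0.043 without saline mouse 1 to 0.24 without saline mouse 10. The limma test and DESeq2 called 0 of the 15, and 0 had an unadjusted p under 0.05 by either. Amt, of the glycine cleavage system, was the 1 of 15 genes without overlap, being higher as were 5.69% of genes tested, with 491, 508 and 507 normalized counts in saline mice 1, 6 and 10, against 524, 578 and 625 in ketamine mice 3, 5 and 9 (0.19 on the log2 scale, limma adjusted p = 0.9993). Gldc, the decarboxylase of the same system, differed by 0.29 (limma adjusted p = 0.948), and the transporter gene Slc1a5 by 0.52 (limma adjusted p = 0.9993). Dao, which breaks down D-serine, and Slc6a5, the neuronal glycine transporter, were too low to test.

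Among 24 genes whose transcription follows NMDA receptor activity, 18 had a higher mean log2 value, beside 7572 of all 16127 genes tested. Their median was 0.44, beside -0.015 over all genes tested, and limma and DESeq2 called 0. Without saline mouse 1, 15 were higher and 9 lower with a median of 0.13, and the median was 0.22 without ketamine mouse 9, 0.27 without ketamine mouse 5 and 0.67 without ketamine mouse 3. Bdnf, the neurotrophin, went against that direction. It had 994, 1002 and 1090 normalized counts in saline mice 1, 6 and 10, against 374, 688 and 712 in ketamine mice 3, 5 and 9, lower in each (-0.86 on the log2 scale, limma adjusted p = 0.628). Ptgs2, which encodes cyclooxygenase-2, differed by -0.83 (limma adjusted p = 0.828) and Klf4, a transcription factor, by 0.54 (limma adjusted p = 0.851), neither with overlap. In all 2 of the 24 were lower without overlap, beside 4.66% of genes tested, and 1 was higher, beside 5.69%. Arc, a postsynaptic activity gene named after its values were seen, had 803, 1671 and 6824 normalized counts in saline mice 1, 6 and 10, a range that held the 2558, 6371 and 3246 of ketamine mice 3, 5 and 9.

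The other ionotropic glutamate receptors showed a similar lack of calls. The 4 AMPA subunits differed by between -0.21 (Gria3) and -0.017 (Gria1) on the log2 scale, and all 4 overlapped between the groups. Of the 5 kainate subunits, Grik1 was higher in each ketamine mouse (0.48; limma adjusted p = 0.889) and Grik4 lower in each (-0.80; limma adjusted p = 0.556). Over all genes tested 5.69% were higher and 4.66% lower without overlap. Grik4 had 871, 925 and 1141 normalized counts in saline mice 1, 6 and 10, against 655, 646 and 411 in ketamine mice 3, 5 and 9. Grik2 differed by 0.38 with overlap. The limma test and DESeq2 called 0 of these 9 genes.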

How the data were processed

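Total RNA from dissected PLc was sequenced with paired-end reads, 1 library for each of the 6 mice. The authors aligned reads to mm9 with TopHat2 2.0.11, counted them per gene with HTSeq and used DESeq2. The deposited table holds a signal per gene, which is the read count scaled by the authors with a factor per library (a normalized count). The annotation and strand setting are not given in the sources used here. Dividing by the step between low values of a library turned 100.0% of its values into whole reads (tolerance 0.1 of a read).

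Log2(normalized count + 1) was compared with limma 3.58.1 (trend, R 4.3.3) in genes averaging 10 or more normalized counts, two-sided, adjusted by Benjamini-Hochberg over all genes tested, at a threshold of 0.05. Fold changes of low genes are understated on this scale. Single values and ratios were compared by exact permutation tests (scipy 1.17.1). Alternatives were pseudocounts of 0.1 and 5, no filter, a filter of 100, recomputed size factors, upper-quartile scaling, no trend, the recovered reads tested with edgeR 4.0.16 and with DESeq2 1.42.0, each mouse left out, and sums without exon length. Fits without ketamine mouse 9 by edgeR and DESeq2, centring within bins of exon length and the longest coding transcript were added after seeing the data. The fits were tested on simulated data. Positions and lengths are those of GENCODE M1, and 1 coding window is not reported here. The genes described and the lists were chosen with earlier results of these data known. Named are the 8 receptor genes, per list the 3 genes with the smallest unadjusted limma p and any DESeq2 called, and the 2 genes most like each receptor gene.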

Additional observations from a re-analysis of the deposited data

How the results depend on the processing

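None of the 7 receptor genes tested passed the threshold under any of the 18 alternatives. Grin1 and Grin2a stayed lower and Grin2c and Grin2d higher throughout, Grin2a between -2.49 and -0.19 on the log2 scale, Grin2c between 0.10 and 0.29 and Grin2d between 0.12 and 0.54. Without ketamine mouse 9, Grin2b turned to 0.093 with DESeq2 and 0.096 with edgeR, and Srr to 0.021 with DESeq2 and 0.025 with edgeR. With each mouse left out in turn, limma gave between -0.63 and 0.14 for Grin2b, between -0.058 and 0.58 for Grin3a and between -0.45 and 0.027 for Srr. The log2 differences of ratios with each mouse left out ran from -2.01 to 0.051 for Grin2a to Grin1, from -0.16 to 0.38 for Grin2b to Grin1, from -0.99 to 0.17 for Grin3b to Grin1, from -0.048 to 0.27 for Srr to Grin1 and from -0.088 to 0.35 for summed GluN2 to Grin1, and the other 5 ratios kept their sign, among them Grin2d to Grin1 between 0.39 and 0.80, Grin3a to Grin1 between 0.21 and 0.83 and summed NMDA to summed AMPA between -0.28 and -0.076. Genes called by limma were 0, or between 0 and 1 with each mouse left out (Trh without ketamine mouse 5 and Cdhr1 without ketamine mouse 9), 182 with DESeq2, and without ketamine mouse 9, 437 with DESeq2 and 1 with edgeR. Genes called in the 5 lists outside the receptor genes were 0, 1 with DESeq2 (beside 1.13% of all genes) and 7 with DESeq2 without ketamine mouse 9. Those 7 were 2 higher and 3 lower of 46 receptor partners, 1 lower of 24 NMDA-driven genes and 1 higher of 5 kainate subunits. In that fit 437 of 15496 genes with an adjusted p were called. With each mouse left out, list medians ran from -0.28 to -0.076 for receptor partners, from 0.13 to 0.67 for NMDA-driven transcription, from 0.043 to 0.24 for co-agonist genes and from -0.23 to -0.026 for AMPA subunits. The kainate median ran from -0.027 to 0.65 with each mouse left out, and without ketamine mouse 9 was 0.65 with DESeq2 and 0.66 with edgeR. The cause of these changes was not tested. No paired analysis was made, because each mouse had only saline or ketamine and the labels give no pairing between mice. With 3 mice a group, exact tests cannot pass the threshold, and the few reads counted limit Grin3b.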
